A study of Mus musculus with 20 samples.

Results

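Voltage-gated calcium channels, voltage-gated sodium channels and hyperpolarization-activated (HCN) channels set how neurons fire and how firing is turned into calcium entry. A calcium channel has a pore-forming alpha1 subunit with beta and alpha2delta subunits that bring it to the membrane and tune its gating; the gamma family includes proteins that instead accompany AMPA receptors. Sodium channels pair a pore-forming alpha subunit with smaller beta subunits and carry the upstroke of the action potential, while HCN channels carry a pacemaker current that opens at negative voltages. This account covers the 42 genes whose names on the array begin with Cacna, Cacnb or Cacng, are those of Scn alpha or beta subunits, or are those of HCN channels, out of 27671 genes that the array names. The members were chosen by name and not by measured values, though with earlier results of these data known.

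The arrays came from dissociated mouse hippocampal neurons on day 21 in culture, exposed for 24 h to 100 µM AP5, to 100 nM NVP-AAM077 (NVP here), to 1 µM of a compound whose label code begins with Ro25, or to vehicle (control), with 5 arrays per group. AP5 and NVP-AAM077 are competitive antagonists of the NMDA receptor. Doses differed between the compounds, the cultures were not sorted, and neither strain nor genotype is stated in the labels. Separate cultures for the 5 arrays of a group are not stated in the labels, so p-values measure only the spread between these arrays, which may be technical.

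On every array the sample RNA was labelled with Cy5 and a universal mouse reference RNA with Cy3. Each value below is therefore a log2 ratio of sample to reference for 1 probe, positive where the sample is brighter. It depends on how much of the gene the reference pool holds, so ratios of different genes do not rank their transcript levels. Bulk RNA also cannot tell fewer cells of a type from less RNA per cell. Differences between groups were tested with limma over 19360 genes, two-sided, with Benjamini-Hochberg adjustment over all of them, and a gene passed at an adjusted p under 0.05.

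Sample signal was well above background on all 20 arrays for 33 of the 42 genes, and 36 genes passed the filter of at least 5 such arrays. Among these, Cacna1i was well above background on 10 arrays, Cacng6 on 11 and Scn10a on 14. The 6 genes that were not tested are Cacna1e (the R-type pore), Cacna1f, Cacng1, Scn7a, Scn9a and Scn11a. No probe of Cacna1f, Cacng1, Scn7a or Scn9a was well above background on any array, and the best probe of Cacna1e was so on 1 array and of Scn11a on 2 arrays.

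The cultures had neuronal markers far above the reference. The mean log2 ratio of 10 pan-neuronal markers was 5.25 to 5.38 on the AP5 arrays, 5.25 to 5.55 on the NVP arrays, 5.32 to 5.45 on the Ro25 arrays and 5.27 to 5.46 on the control arrays. Astrocyte markers were also high, between 3.81 and 4.97 over the 4 groups. Of the microglial markers, Aif1, Csf1r and Tmem119 were well above background on 20 arrays, Cx3cr1 on 16, Itgam on 1 and P2ry12 on 0. Of the endothelial markers, Kdr was so on 20 arrays, Pecam1 and Cldn5 on 9 each and Cdh5 on 0. With AP5 against control, single markers passed while their lists did not move with them. Stmn2 rose by 0.22, as 1 of 10 pan-neuronal markers (list median -0.05), Csf1r by 0.44, as 1 of 4 tested microglial markers (median 0), and Kdr by 0.94, as 1 of 3 tested endothelial markers (median 0.05). Col1a2 fell by 0.24, as 1 of 5 fibroblast markers (median -0.10), and Myh1 by 0.43, as 1 of 5 muscle markers (median -0.04). Of 2 tested ependymal markers 0 passed with AP5, but both had an unadjusted p under 0.05, with a list median of 0.42. Csf1r and Myh1 passed also for AP5 against NVP and against Ro25. Neurod6, 1 of 5 tested excitatory markers, was lower with AP5 in both of these comparisons. It differed by -0.56 from NVP (adjusted p = 0.0165) and by -0.69 from Ro25 (adjusted p = 0.00575). The list median of the 5 excitatory markers was 0.04 against NVP and 0.11 against Ro25. In each, 3 of the 5 had an unadjusted p under 0.05. The part of all these markers in the results below was not tested. There were 7 slides and 3 scan days, with 17 arrays on the first day. AP5 shared no slide with control, nor did NVP, so for both the slide could be separated from the compound only through slides shared with other groups. Control array 3 shared a slide with Ro25 arrays, and the other 4 control arrays lay on a slide of their own. With slide as a fixed block, differences from control therefore rest on control array 3 alone.

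Few channel genes passed the test. With AP5, 8.52% of all genes tested passed (4.16% higher and 4.36% lower), and of the 36 channel genes 1 did (2.78%): Cacnb1, which was lower. With NVP 0% of all genes passed and 0 channel genes; with Ro25 0.00517% of all genes passed and 0 channel genes. At an unadjusted p under 0.05 there were 4 channel genes with AP5 (11.1%, beside 21.1% of all genes), 4 with NVP (11.1%, beside 6.78%) and 2 with Ro25 (5.56%, beside 5.13%). The median difference over the channel genes was 0.01 with AP5, 0.06 with NVP and 0.02 with Ro25 on the log2 scale, beside 0, -0.02 and 0 over all genes. With slide as a fixed block these channel medians were -0.40, -0.20 and -0.17. In that fit control is array 3 alone, whose mean log2 ratio over the channel genes was 2.13, beside 1.99 over the control arrays. The Ro25 arrays on the slide of that array differed from it by a channel median of -0.17. No median over all genes was taken for that fit, so a shift shared by all genes of control array 3 cannot be told apart.

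The intervals limit how large a change could have been missed. Every 95% interval of a channel gene's difference from control lay inside a 2-fold change in either direction, with each of the 3 compounds. They lay inside a 1.5-fold change for 29 of the 36 genes with AP5, 30 with NVP and 36 with Ro25. The median standard error was 0.127 over the channel genes and 0.0926 over all genes. These intervals rest on the fit without slides: with slide as a fixed block the median standard error of the channel genes for AP5 against control was 0.296 and 58 genes of the whole array passed. The 3 comparisons with control share the same 5 control arrays.

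**Figure D1:**
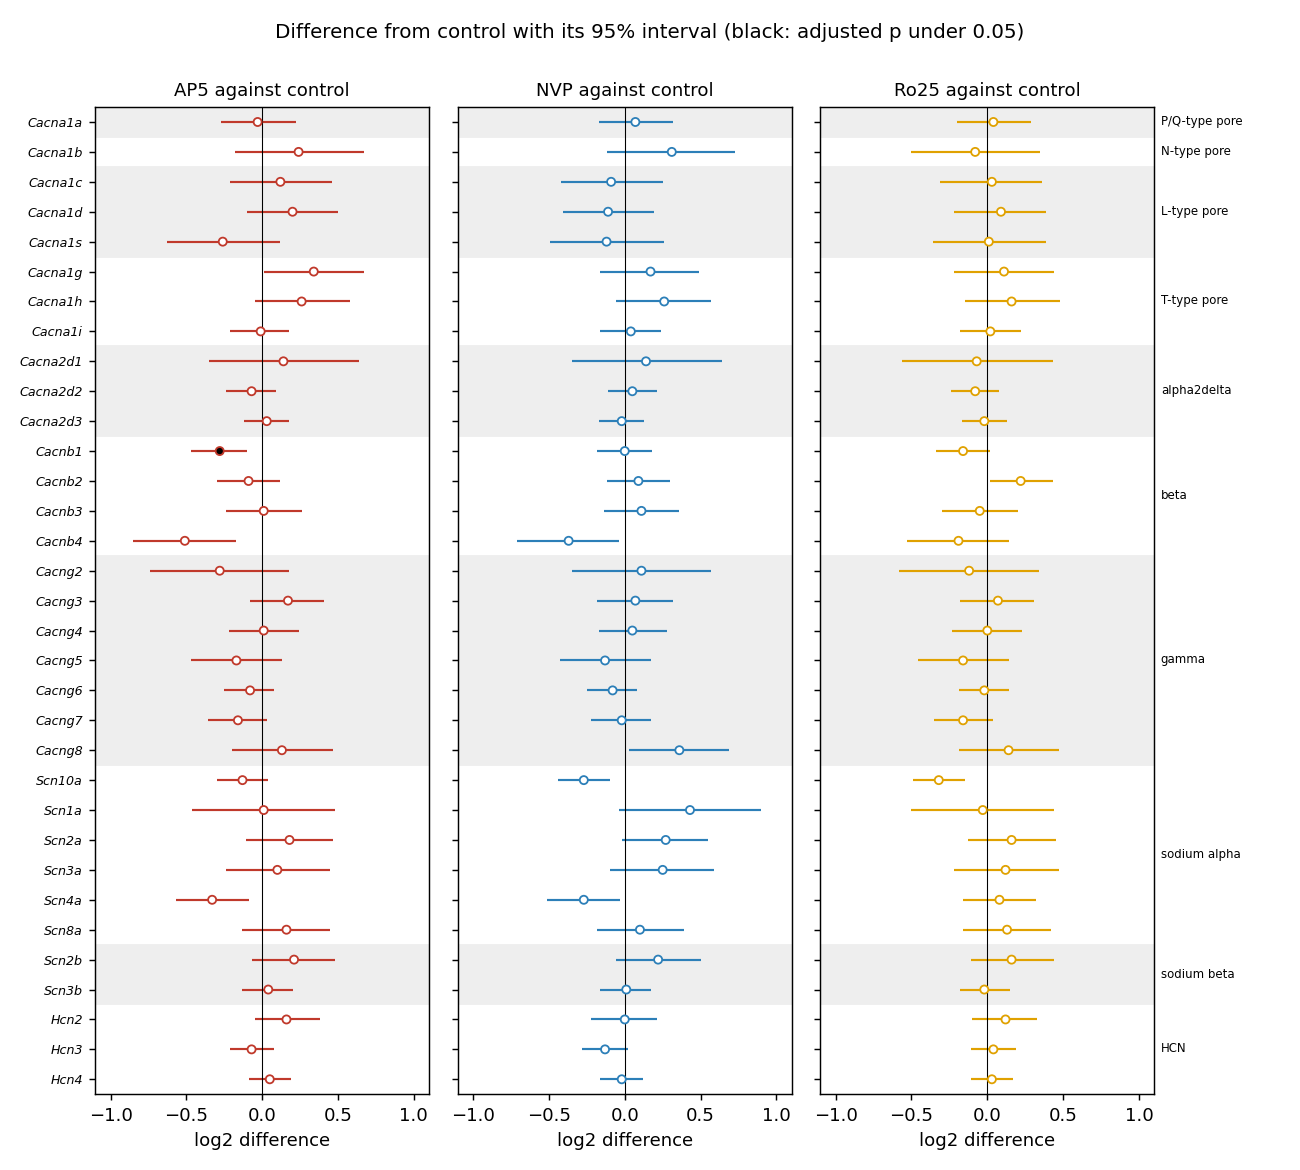
Log2 difference from control (x axis) for 33 of the 36 tested channel genes (y axis, grouped by role) with AP5, NVP and Ro25; points are the fitted differences, lines their 95% intervals, and a black point marks an adjusted p under 0.05. Only Cacnb1 with AP5 is marked, and the interval farthest from 0 ends at 0.90 with NVP.

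Among the pore-forming calcium channel genes, 0 of 8 passed with any compound. Cacna1a, the P/Q-type pore of presynaptic release sites, averaged 0.75 ± 0.16 with AP5, 0.86 ± 0.13 with NVP, 0.83 ± 0.26 with Ro25 and 0.78 ± 0.21 in control (SD, n = 5 each). Cacna1b, the N-type pore, averaged 2.49 ± 0.14, 2.55 ± 0.29 and 2.17 ± 0.45 with AP5, NVP and Ro25, against 2.24 ± 0.44 in control. The groups overlapped for both genes.

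The neuronal L-type pores Cacna1c and Cacna1d, which couple depolarization to gene expression, lay 3.06- and 5.19-fold above the reference with AP5, against 2.81- and 4.52-fold in control. Their differences with AP5 were 0.12 (95% interval -0.21 to 0.46, adjusted p = 0.75) and 0.20 (-0.10 to 0.50, adjusted p = 0.486). Cacna1s, the L-type pore of skeletal muscle, lay 5.15-fold below the reference with AP5 and 4.32-fold below it in control.

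The T-type pores open at low voltages. Cacna1g had the only interval among the calcium channel pores that excluded 0 with AP5. Its log2 ratios were 0.61, 0.28, 0.50, 0.56 and 0.18 with AP5, against 0.28, -0.07, 0.42, 0.02 and -0.22 in control. The AP5 values lay higher on average but the groups overlapped. The difference was 0.34 ± 0.16 (SE) and did not pass (adjusted p = 0.214), and the other kept probe of the gene gave 0.10. With slide as a fixed block, where control is array 3 alone (0.42, the highest control value), the difference was -0.63, the opposite sign. Cacna1h differed by 0.26, 0.26 and 0.16 with AP5, NVP and Ro25, and Cacna1i by no more than 0.04 with any of them.

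The alpha2delta subunits sit outside the membrane, and those of Cacna2d1 and Cacna2d2 are the targets of gabapentin. Cacna2d3 averaged 3.84 ± 0.07 with AP5, 3.78 ± 0.16 with NVP and 3.78 ± 0.11 with Ro25, against 3.80 ± 0.05 in control, 14.3-fold above the reference with AP5. Cacna2d2 averaged -1.73 ± 0.18, -1.60 ± 0.08 and -1.73 ± 0.12, against -1.65 ± 0.04 in control. The tested Cacna2d2 probe thus differed from control by -0.07, 0.05 and -0.08 with AP5, NVP and Ro25. Its other kept probe differed by 0.31, 0.29 and 0.13. None of the 3 genes tested passed with any compound.

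**Figure D2:**
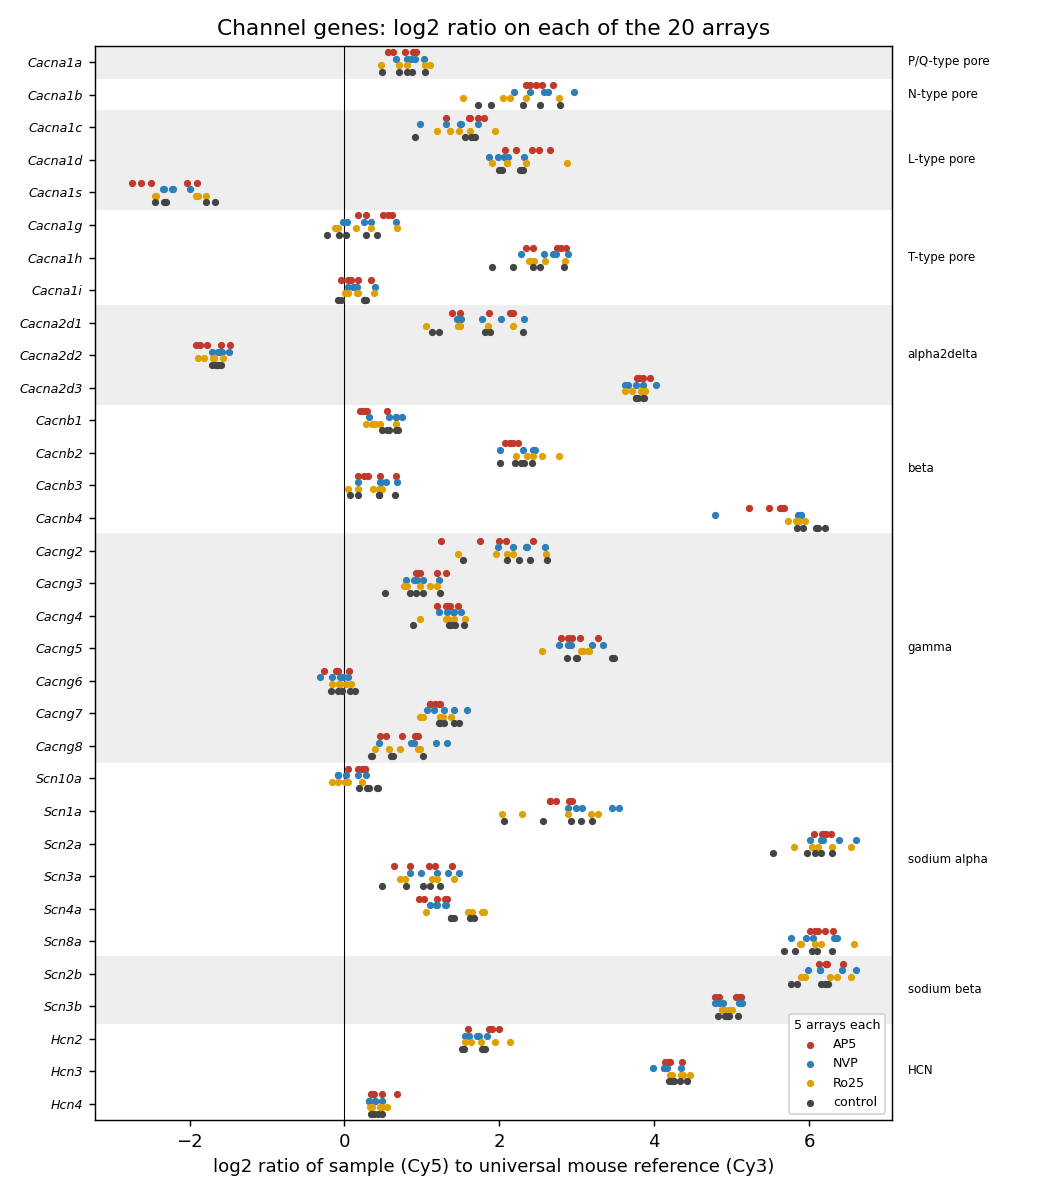
Log2 ratio of sample to reference (x axis) on each of the 20 arrays for 33 of the 36 tested channel genes (y axis, grouped by role), with AP5, NVP, Ro25 and control drawn above one another within a gene and 5 points each. For nearly all genes the 4 groups cover the same range; Cacna1s and Cacna2d2 lie below 0, and Scn2a, Scn2b and Scn8a lie near 6.

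The beta subunits, cytoplasmic proteins that carry the pores to the membrane, held the single gene that passed against control. Cacnb1 had log2 ratios of 0.29, 0.55, 0.20, 0.22 and 0.26 with AP5, against 0.66, 0.55, 0.58, 0.69 and 0.48 in control. Of the AP5 arrays 4 lay below every control array, and array 2 lay among them. The difference was -0.28 ± 0.09 (SE; 1.22-fold lower with AP5; adjusted p = 0.0474). With NVP the values were 0.67, 0.57, 0.67, 0.74 and 0.31, a difference from control of 0.00 (adjusted p = 1), and with Ro25 they were 0.66, 0.40, 0.46, 0.28 and 0.35, a difference of -0.16 (adjusted p = 1).

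The Cacnb1 call stood close to the threshold. AP5 array 1, 3, 4 or 5 left out gave an adjusted p of 0.0933, 0.109, 0.11 or 0.0889, and control array 1, 2, 3 or 4 left out gave 0.104, 0.0672, 0.0736 or 0.117. Without AP5 array 2 it was 0.0138. The direction was the same in all 23 other settings tried, with differences of -0.37 to -0.25, and 15 of them lost the call. The direct comparison of AP5 with NVP gave -0.29 ± 0.09 (SE; adjusted p = 0.0514).

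Cacnb4, a further beta subunit, showed a difference on 1 of its 4 kept probes. On the brightest, used in the test, the log2 ratios were 5.67, 5.22, 5.65, 5.48 and 5.62 with AP5, against 6.11, 5.92, 5.85, 6.20 and 6.09 in control. Every AP5 array lay below every control array, and for 8.22% of all genes the AP5 and control arrays did not overlap. The difference was -0.51 ± 0.16 (SE; adjusted p = 0.0557) and did not pass; with slide as a random block it did (adjusted p = 0.0489), as it did in a fit of the AP5 and control arrays alone (0.0093). NVP gave 4.78, 5.86, 5.89, 5.88 and 5.90, where array 1 stood apart, and Ro25 gave 5.73, 5.87, 5.83, 5.84 and 5.95.

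The other Cacnb4 probes did not show it. The array's own annotation, on build mm7, puts the brightest probe (A_51_P197863) at chr2:52435714-52435773 on the minus strand, assigned to transcript variant 1. The other 3 are assigned to transcript variant 2 and lie 6.0, 6.3 and 27.2 kb away, toward the 5′ end of the gene: A_52_P16482 at chr2:52441703-52441762, A_51_P398621 at chr2:52442010-52444205 and A_51_P234663 at chr2:52462929-52462988. They differed between AP5 and control by -0.06, -0.09 and 0.05 (adjusted p = 0.744, 0.736 and 0.849). In the series' value table, where a dimmer probe stands for the gene, the Cacnb4 difference was 0.06. Which transcripts these cultures make was not measured.

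**Figure D3:**
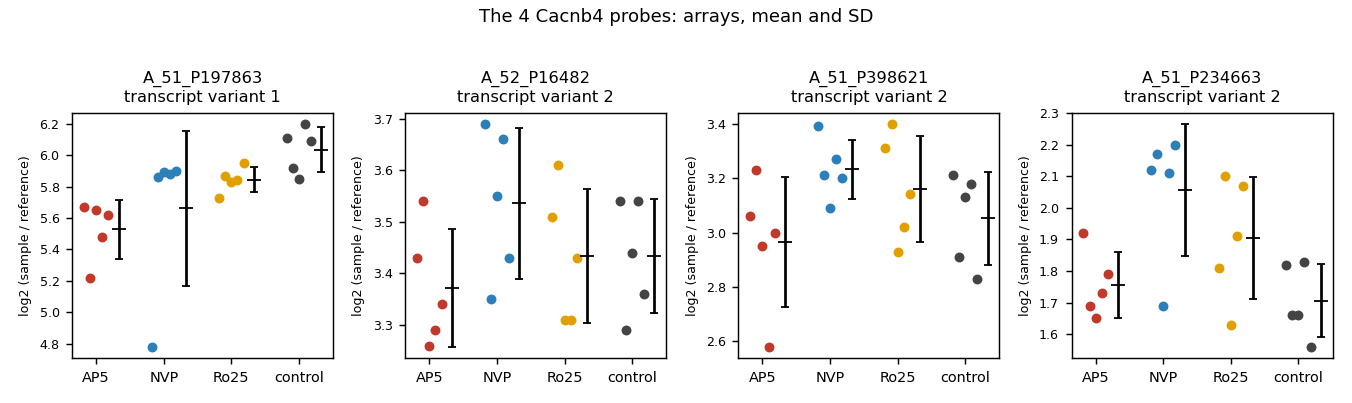
Log2 ratio of sample to reference (y axis, a scale of its own in each panel) for the 4 kept Cacnb4 probes in the order of their positions, for AP5, NVP, Ro25 and control; points are arrays, with the mean and SD (n = 5) beside them. In the first panel all AP5 arrays, at 5.22 to 5.67, lie below the control arrays at 5.85 to 6.20; in the others AP5 and control overlap.

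The other beta genes, Cacnb2 and Cacnb3, did not pass with any compound, and Cacnb3 differed from control by 0.01, 0.11 and -0.05 with AP5, NVP and Ro25. Cacnb2 averaged 2.15 ± 0.06 with AP5, 2.33 ± 0.19 with NVP and 2.47 ± 0.21 with Ro25, against 2.24 ± 0.16 in control. Its difference was 0.22 with Ro25 (adjusted p = 0.904) and -0.32 between AP5 and Ro25 (adjusted p = 0.0906). Another of its 3 kept probes (A_52_P209514) was lower with AP5 than with NVP by a log2 difference of -0.39 (adjusted p = 0.0108 in a fit of all probes), while the tested probe gave -0.18 and the remaining probe -0.14. Of the 4 beta genes 3 had a negative difference with AP5, with a median of -0.19.

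Of the gamma genes 0 of 7 passed with any compound. Cacng2, Cacng3, Cacng4 and Cacng8 encode AMPA receptor auxiliary subunits. Cacng8 averaged 0.72 ± 0.22 with AP5, 0.94 ± 0.34 with NVP and 0.72 ± 0.25 with Ro25, against 0.59 ± 0.27 in control. Its difference with NVP was 0.36 ± 0.16 (SE; adjusted p = 0.699). With slide as a fixed block it was -0.16, where control is array 3 alone (1.01, the next control array at 0.63). Cacng2 (stargazin) differed by -0.28, 0.11 and -0.12 with AP5, NVP and Ro25, with an interval of -0.74 to 0.18 for AP5. Its other kept probes gave -0.04 and 0.20 with AP5, -0.01 and 0.39 with NVP, and 0.09 and 0.02 with Ro25. Cacng7 differed by -0.16 with AP5, -0.02 with NVP and -0.16 with Ro25. Cacng4 averaged 1.33 ± 0.10 with AP5, 1.37 ± 0.10 with NVP and 1.32 ± 0.22 with Ro25, against 1.32 ± 0.25 in control. Cacng3, Cacng5 and Cacng6 differed by 0.17, -0.17 and -0.08 with AP5, and did not pass.

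The sodium channel alpha genes of brain neurons stayed within their spread. Scn2a (Scn2a1 in the files), a pore of excitatory neurons, averaged 6.18 ± 0.08 with AP5, 6.27 ± 0.23 with NVP and 6.16 ± 0.27 with Ro25, against 6.00 ± 0.29 in control. Scn8a, the pore of mature axon initial segments, averaged 6.14 ± 0.12, 6.09 ± 0.25 and 6.12 ± 0.29, against 5.98 ± 0.24 in control. On a linear scale Scn2a was 72.6-fold above it with AP5 and 64.1-fold in control.

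Scn1a, the pore on which inhibitory interneurons depend, averaged 2.77 ± 0.14 with AP5, 3.19 ± 0.29 with NVP and 2.73 ± 0.55 with Ro25, against 2.76 ± 0.46 in control. Its difference with NVP was 0.43 (interval -0.04 to 0.90, adjusted p = 0.791). Scn3a, an embryonic form, differed by 0.10, 0.25 and 0.12. The arrays of the 4 groups overlapped for each of these genes.

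The sodium channels best known from muscle and sensory neurons had unadjusted p-values under 0.05 in some comparisons. Scn4a, the pore of skeletal muscle, had log2 ratios of 1.30, 0.96, 1.33, 1.19 and 1.03 with AP5 and 1.30, 1.18, 1.19, 1.31 and 1.11 with NVP. Ro25 gave 1.60, 1.80, 1.65, 1.77 and 1.05, and control 1.67, 1.37, 1.42, 1.37 and 1.62. All AP5 and all NVP arrays lay below all control arrays (8.22% of all genes did not overlap for AP5 and 1.91% for NVP), and 0 channel genes did not overlap for Ro25 (1.01% of all genes), where array 5 lay far below the other Ro25 arrays.

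Scn4a passed only between AP5 and Ro25, where it was lower with AP5 by a log2 difference of -0.41 ± 0.12 (SE; adjusted p = 0.0497; 1 of 36 channel genes, beside 4.06% of all genes, 2.25% in that direction). Against control it differed by -0.33 with AP5 (adjusted p = 0.0882), -0.27 with NVP (0.66) and 0.08 with Ro25 (1). The AP5 to Ro25 call was lost without any 1 of the 5 AP5 arrays (0.0513 to 0.126) and without Ro25 array 1, 2, 3 or 4 (0.0954, 0.119, 0.11 and 0.13), and stood at 0.000807 without Ro25 array 5. Of 5 muscle markers 1 passed between AP5 and Ro25, Myh1, with a log2 difference of -0.56 (adjusted p = 0.000625), and the median of the 5 was 0; the part of muscle RNA in the Scn4a result was not tested.

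Scn10a, a pore of sensory neurons, had log2 ratios of 0.17, -0.08, -0.09, 0.02 and 0.28 with NVP and 0.01, 0.05, 0.22, -0.16 and -0.08 with Ro25, against 0.19, 0.43, 0.29, 0.31 and 0.42 in control. The differences were -0.27 (adjusted p = 0.503) and -0.32 (adjusted p = 0.407), neither past the threshold, and the groups overlapped. The other probe of the gene gave -0.06 with NVP and 0.02 with Ro25. The tested probe was well above background on 4 AP5, 2 NVP, 3 Ro25 and 5 control arrays.

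**Figure D4:**
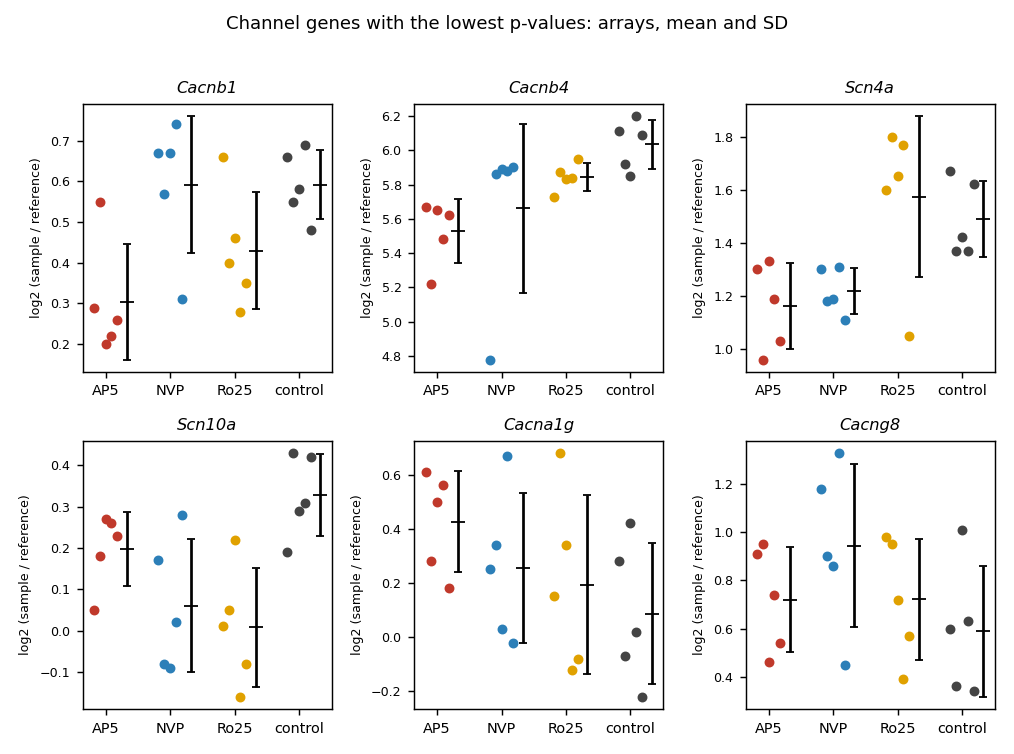
Log2 ratio of sample to reference (y axis, a scale of its own in each panel) for Cacnb1, Cacnb4, Scn4a, Scn10a, Cacna1g and Cacng8, for AP5, NVP, Ro25 and control; points are arrays, with the mean and SD (n = 5) beside them. AP5 arrays lie below all control arrays for Cacnb4 and Scn4a, and 4 of 5 do for Cacnb1.

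The sodium channel beta genes did not pass with any compound. Scn2b averaged 6.25 ± 0.12 with AP5, 6.26 ± 0.25 with NVP and 6.20 ± 0.27 with Ro25, against 6.04 ± 0.22 in control. Scn3b differed by 0.04, 0.01 and -0.02, and its interval with AP5 ran from -0.13 to 0.20.

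Of the HCN genes 0 of 4 passed with any compound. Hcn2 differed by 0.16 with AP5 (interval -0.05 to 0.38), 0.00 with NVP and 0.12 with Ro25. Hcn3, 18.6-fold above the reference with AP5 and 19.5-fold in control, differed by -0.07, -0.13 and 0.04, and Hcn4 by no more than 0.05 in either direction.

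Different probes of a gene set a limit on such small differences. Of the 19 channel genes with more than 1 kept probe, probes disagreed in sign for 9 genes with AP5, 7 with NVP and 12 with Ro25. Tested probe by probe, 0 of the 64 kept channel probes passed against control with any compound, 1 passed for AP5 against NVP (the Cacnb2 probe above), and Cacnb1's adjusted p with AP5 was then 0.0516.

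A separate list of 36 genes, called partner genes here, held proteins that bind or regulate these channels. It also held other ion channels and their subunits: Nalcn, Unc79, Unc80, Catsper1 to Catsper4, Tpcn1 and Tpcn2. Of the 36 genes 33 were tested. With AP5, 8 of the 33 passed (24.2%, beside 8.52% of all genes), 5 lower and 3 higher; 0 passed with NVP and 0 with Ro25. At an unadjusted p under 0.05 there were 11 with AP5. The list median was 0.02 with AP5, beside 0 over all genes. Because the list was chosen with earlier results of these data known, its share of calls does not test partner genes as a set.

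Rem2, a small GTPase of the RGK family that lowers calcium channel current, fell with AP5. Its log2 ratios were 1.77, 1.81, 1.60, 1.71 and 1.58 with AP5, against 2.44, 2.49, 2.61, 2.62 and 2.47 in control. NVP gave 2.61 to 2.88 and Ro25 2.43 to 2.91, so the AP5 arrays lay below all 15 others. The difference from control was -0.84 ± 0.08 (SE; 1.78-fold lower; adjusted p = 1.16e-06), and AP5 also differed from NVP by -1.04 (adjusted p = 1.28e-07) and from Ro25 by -0.87 (adjusted p = 1.69e-06). The call held in all 23 other settings.

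Cbarp, a membrane protein that binds beta subunits and restrains calcium channels, fell with AP5 as well. Its log2 ratios were 2.80, 2.93, 2.86, 2.90 and 2.86 with AP5, against 3.31, 3.17, 3.28, 3.36 and 3.25 in control, and no AP5 array reached the lowest of the NVP arrays (3.12) or Ro25 arrays (3.05). The difference from control was -0.41 ± 0.07 (SE; adjusted p = 0.000374), and -0.67 with slide as a fixed block, where it did not pass (adjusted p = 0.098).

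The promoter sequences of Cacnb1 and Rem2 are shown because these are the channel gene and the partner gene with the lowest p-values with AP5. Each line gives the 250 bases before the RefSeq start (for Cacnb1 the first of 2 listed), 5′ to 3′, with matches to the GC box GGGCGG on either strand in capitals. They lie on GRCm38.p6 at chr11:98022628-98022877 (minus strand) and chr14:54475850-54476099 (plus strand).
Cacnb1: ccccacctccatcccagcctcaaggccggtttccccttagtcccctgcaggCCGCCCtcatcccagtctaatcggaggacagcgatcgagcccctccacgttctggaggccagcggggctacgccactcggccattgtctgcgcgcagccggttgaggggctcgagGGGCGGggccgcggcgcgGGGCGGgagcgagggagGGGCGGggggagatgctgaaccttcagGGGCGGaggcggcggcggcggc
Rem2: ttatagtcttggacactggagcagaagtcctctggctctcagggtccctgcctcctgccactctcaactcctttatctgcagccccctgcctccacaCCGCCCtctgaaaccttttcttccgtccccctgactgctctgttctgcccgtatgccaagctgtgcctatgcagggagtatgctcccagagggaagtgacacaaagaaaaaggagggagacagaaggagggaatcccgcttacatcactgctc
The Cacnb1 window shown holds 5 GC boxes, the window of its second listed start 0, and the Rem2 window 1; 32.7% of the 32851 promoter windows of this length hold at least 1. Neither holds the cAMP response element TGACGTCA, found in 1.55% of the windows, or its shorter form TGACG, found in 17.8%, both searched on both strands; the shorter form lies within the longer. These are letter matches only.

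Other partners of the calcium channels passed less securely. Stac3, an adaptor of L-type channels known from muscle, had log2 ratios of -0.02, 0.19, -1.09, 0.28 and -0.28 with AP5, against 0.79, 1.25, 1.12, 1.05 and 0.21 in control. The groups overlapped through control array 5, and the difference was -1.07 ± 0.25 (SE; adjusted p = 0.00949). Stac3 lost its call in 2 of 23 other settings. These were the arrays of the first scan day (-0.82, adjusted p = 0.0845) and slide as a fixed block. Calm2, 1 of the genes for calmodulin, fell by 0.27 (adjusted p = 0.0249); it did not pass without AP5 array 4 or 5 or control array 1 or 4 (0.0507 to 0.0785), and with slide as a fixed block the difference was 0.09.

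Partners of the HCN and sodium channels moved in both directions. Pex5l (TRIP8b), an auxiliary subunit of HCN channels, had log2 ratios of 2.78, 2.76, 2.45, 2.99 and 2.77 with AP5, against 2.27, 2.29, 1.96, 2.17 and 2.11 in control. It rose by 0.59 ± 0.13 (SE; 1.51-fold; adjusted p = 0.0061), with no overlap. It did not pass with slide as a fixed block (0.83, adjusted p = 0.223) or with the background fit on all spots (0.43, adjusted p = 0.178). With NVP it differed by 0.42 (adjusted p = 0.512), also with no overlap, and with Ro25 by 0.49 (adjusted p = 0.459). Arrays did not overlap with control for 8.22% of all genes with AP5 and for 1.91% with NVP.

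Fgf14, a fibroblast growth factor homologous factor that binds sodium channels, had log2 ratios of 4.14, 3.29, 4.09, 3.87 and 3.76 with AP5, against 3.38, 3.12, 3.35, 2.95 and 2.97 in control, and rose by 0.68 ± 0.17 (SE; adjusted p = 0.0132). The groups overlapped, AP5 array 2 lying below control arrays 1 and 3. It did not pass in 5 of 23 other settings, among them the scanner's processed signals (0.49, adjusted p = 0.543) and slide as a fixed block (0.57, adjusted p = 0.418). Its other probes gave 0.29 (adjusted p = 0.015) and 0.18 (adjusted p = 0.244). Fgf13, of the same family, fell by 0.23 (adjusted p = 0.0478), but kept its call without control array 1 only (0.0312), and failed without any other 1 of the AP5 or control arrays (0.0515 to 0.139). Gpd1l, known to modulate sodium current, rose by 0.21 (adjusted p = 0.0355); it failed without AP5 array 1, 3, 4 or 5 or control array 3, 4 or 5 (0.0517 to 0.0993), and its other probe gave 0.01.

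**Figure D5:**
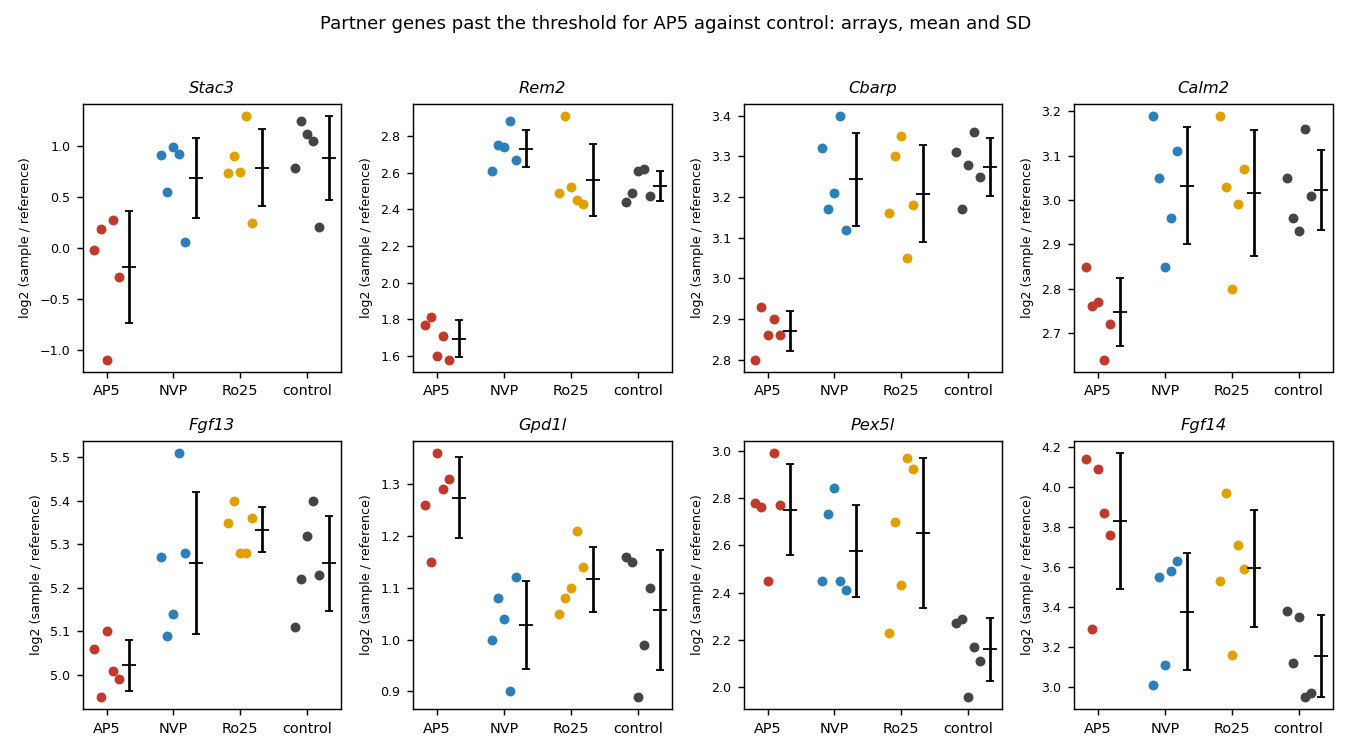
Log2 ratio of sample to reference (y axis, a scale of its own in each panel) for the 8 partner genes that passed for AP5 against control, for AP5, NVP, Ro25 and control; points are arrays, with the mean and SD (n = 5) beside them. Rem2 and Cbarp on AP5 arrays lie below all arrays of the other 3 groups.

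Between the compounds, 6 of the 33 partner genes passed for AP5 against NVP (18.2%, beside 7.48% of all genes) and 5 for AP5 against Ro25 (15.2%, beside 4.06%), and Rem2, Cbarp, Stac3, Calm2 and Fgf13 were lower with AP5 in both. Rem2 and Cbarp apart, these calls were fragile: with 1 array left out, Fgf13 lost its call in 8 of 10 fits against NVP (adjusted p up to 0.146), Calm2 in 3 of 10 against NVP (0.0732) and 9 of 10 against Ro25 (0.133), and Stac3 in 7 of 10 against NVP (0.117) and 6 of 10 against Ro25 (0.0884). Fgf13 against Ro25 kept its call in all 10. Over all 23 other settings, only Rem2 kept every call. Cbarp lost its call in 1 of them against NVP (adjusted p = 0.106) and in 2 against Ro25 (up to 0.102). Gpd1l was the sixth against NVP, higher with AP5 by 0.24 (adjusted p = 0.0196). Of the channel genes 0 of 36 passed for AP5 against NVP, beside 7.48% of all genes (4.13% higher and 3.35% lower with AP5). For NVP against Ro25 0 of 36 passed, beside 0% of all genes. At an unadjusted p under 0.05 there were 3 channel genes for AP5 against NVP (19.7% of all genes) and 2 for NVP against Ro25 (6.86%). Arrays did not overlap for 0 channel genes between AP5 and NVP (7.98% of all genes), and for Cacnb4 between AP5 and Ro25 (4.41%). Because the same 5 AP5 arrays enter each of these comparisons, they do not count as separate evidence. The partner shares here carry the same limit as those against control, since the list was chosen with earlier results known.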

How the data were processed

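The files the authors deposited for the 20 arrays (Agilent, both colours on each) give intensity, not log-transformed, and a log10 ratio of red to green per the file headers. Their Feature Extraction version is 11.0 in the submitters' processing notes, while the headers name an earlier one. The deposited value table of the series holds log2 ratios for 20674 probes; its slope was 0.834 to 0.857 on the scanner's log ratio turned to log2 and 0.991 to 0.996 on the ratios after normexp and loess, so it runs sample over reference, while how it was centred stays unknown (column medians 0.0302 to 0.0626).

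Background was corrected with normexp (offset 50) on mean and median background signals, followed by loess within arrays, with control and outlier-flagged spots left out (86 to 172 spots per array; 0 saturated values). The normexp background was estimated from spots that the scanner did not flag as outliers. This was chosen after results had been seen: with all spots, 3 flagged spots on AP5 array 1 took its fitted green background to -149 in place of -3.28, and 2 on control array 5 took that to -24.8 in place of -2.49, and the mean log2 ratio over channel genes on AP5 array 1 to 1.49 in place of 2.06. Spots of a probe were averaged; 28518 of 41174 probes, whose red signal stood well above background on 5 arrays or more, were kept, and the brightest stood for its gene. The median red intensity of an array was 142 to 185 and the median green one 115 to 138; the number of arrays limits the precision. Probes were named through RefSeq (GRCm38.p6): accessions named 22951 probes, symbols 6659 and synonyms 3109, and 8455 kept the file's name.

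Groups came from sample titles. limma 3.58.1 in R 4.3.3 fitted a mean per group over all 20 arrays (6 comparisons). The genes named are channel genes past the threshold, the 5 with the lowest p against control where fewer than 5 passed, pore subunits by role, and partner genes past the threshold. The members and lists were chosen with earlier results of these data known. The fit was tested on simulated data. Alternatives covered background, normalization, filters, probes, slide, scan day, replicate block and leaving out arrays. Replicate numbers were not taken as pairs. Some channel genes are counted among the members but their own values are not reported here.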

Additional observations from a re-analysis of the deposited data

Results flagged for a closer look

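Among 72 sets of 5 arrays (named genes, by group), 4 held an array far from the other 4, and chance gives about 1 in 20 such sets. For Scn4a, Ro25 array 5 stood at 1.05 on the log2 scale and the next array at 1.60. For Cacnb1, AP5 array 2 stood at 0.55, above the next at 0.29 and among the control arrays. For Cacnb4, NVP array 1 stood at 4.78 and the next at 5.86. For Rem2, Ro25 array 2 stood at 2.91 and the next at 2.52.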

How the results depend on the processing

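With AP5 against control, 0 channel genes passed with the scanner's processed signals, median centring, the value table, no filter on dim probes, slide as a fixed block, the arrays of the first scan day and the background fit on all spots; 2 passed with slide as a random block and in the 2 groups alone, and 0 to 1 with 1 array left out. For AP5 against NVP, where 0 passed, 1 did with no background correction, median centring, the value table, the filter at 10 arrays, the mean of probes, slide as a random block and the replicate block, and 0 to 1 with 1 array left out. For AP5 against Ro25, where 1 passed, 0 did with no background correction, the processed signals, no filter, slide as a fixed block, the first scan day and the 2 groups alone, and 0 to 1 with 1 array left out. With slide as a fixed block the channel median moved to -0.40 for AP5 and to -0.20 for NVP against control, with larger standard errors. That fit links AP5 and NVP to control only through other groups, and its differences from control rest on control array 3 alone. No median over all genes was taken for it. Partner genes passing for AP5 against control were 8, and 5 with the processed signals and with the mean of probes, 4 with median centring and with the background fit on all spots, 3 on the first scan day, 1 with slide as a fixed block and 5 to 7 with 1 array left out. For AP5 against NVP they were 6, and 3 with the processed signals and with median centring, 2 on the first scan day, 1 with slide as a fixed block and 3 to 7 with 1 array left out; for AP5 against Ro25 5, and 3 in the 2 groups alone, 2 with the processed signals, 1 on the first scan day and with slide as a fixed block, and 3 to 4 with 1 array left out. Gpd1l turned to -0.01 against control and -0.06 against NVP in the value table, which holds only the other probe, and Calm2 to 0.09 with slide as a fixed block; the cause was not tested. The background fit on all spots, added after seeing the data, called 1183 genes of the whole array for AP5 against control in place of 1650, median centring 768, the first scan day 912 and slide as a fixed block 58. The replicate block changed no call of a channel gene against control and called 1805 genes for AP5; no count for NVP or Ro25 against control changed for channel or partner genes under any alternative. Deviations of same-numbered arrays correlated at -0.45 to 0.80: at 0.61 to 0.80 for number 5 in all 6 comparisons, and above 0.1 for 1 to 3 of the 5 numbers in each comparison, so the numbers were not taken as pairs; 4 arrays of 20 had their best match in another group under their own number.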
